A study of Mus musculus with 8 samples.

Results

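Bone morphogenetic proteins (BMPs) are secreted signals of the TGF-beta superfamily. A BMP dimer binds type I and type II receptor kinases, which phosphorylate SMAD1, SMAD5 and SMAD9, and extracellular antagonists hold the ligand away from its receptors. In the liver, sinusoidal endothelium makes BMP6 and BMP2, which act on neighbouring hepatocytes to raise hepcidin, the hormone that lowers iron export into blood. The genes described here are 3 ligands (*Bmp6*, *Bmp2* and *Bmp4*), 3 secreted proteins that bind BMPs (*Bmper*, *Nog* and *Grem1*) and the decoy receptor *Bambi*. They were taken by gene symbol, and each was read by 1 of the 23930 targets. Of these 7 genes, 6 passed the filter on low counts, as did 14601 targets in all, and *Grem1* did not.

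The cells were liver sinusoidal endothelial cells (LSECs) of young wild-type female Balb/c mice, sorted by flow cytometry for dim CD45, high STAB2 and high CD146. Cells were taken 5 h after the mice had received either 150 µg of iron citrate or the vehicle, 0.05 M citrate buffer, into a vein. There were 4 libraries in each group, each labelled as a replicate mouse; the design text counts more per group, which were not analysed here. Where replicates shared a source, p-values would cover only technical spread. The series' title places *Bmp6* mRNA downstream of iron through p38 and ETS1, independently of NRF2. The panel used (Ion AmpliSeq) amplifies a short stretch of each transcript, so values of different genes also depend on how well each stretch amplifies, and a difference in level between genes is not a difference in transcript number. Levels are CPM, the share of a library's counts scaled to a common total, with TMM factors applied to the totals. Values per library are given in the order of their replicate numbers, from 1 to 4. In bulk RNA of sorted cells, fewer cells of a type and less RNA per cell cannot be told apart.

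Libraries held between 7969520 and 11314659 counts on targets. Citrate buffer replicate 1 stood apart: its median correlation with its own group over log2 CPM was 0.85, against 0.967 to 0.985 for the other 7 libraries. In this library 2.30% of counts fell on 1214 targets with 1 coding exon (olfactory, vomeronasal and taste receptor genes and genes of keratin-associated proteins), none of them typical of liver. They are called intronless here for their coding sequence, and non-coding exons were not considered. The share was 0.931% in citrate buffer replicate 2 and 0.276% to 0.576% in the other 6. The sinusoidal markers named below summed to 20479 CPM in citrate buffer replicate 1 and to between 30457 and 39013 CPM in the other 7 libraries. Results for the 6 genes tested across all targets are therefore given with and without citrate buffer replicate 1, as are those for some of the pathway genes. Those of the other pathway genes can change markedly without it too.

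*Bmp6* was the member called in the test across all targets, and with *Bmp4* and *Bambi* it was among the 3 whose groups did not overlap. It stood at 97.3, 278, 378 and 535 CPM after buffer, and at 1580, 1639, 1601 and 1816 CPM after iron. All 4 iron citrate values lay above all 4 buffer values, as for 6.36% of the targets tested (8.64% did not overlap in either direction). The spread was unlike between the groups: the coefficient of variation was 57.0% after buffer and 6.49% after iron. The 3 lower iron citrate values lay close together, while the buffer values were spaced apart from each other, with replicate 1 the lowest. *Bmp6* rose 5.15-fold, a log2 fold change of 2.36 ± 0.42 (SE; edgeR quasi-likelihood test, adjusted p = 0.0423 over all targets). Of all targets 0.555% were called, 0.527% higher and 0.0274% lower. Without citrate buffer replicate 1 it was 2.06 ± 0.19 (edgeR adjusted p = 1.51e-05), in a fit that called 1.5% of targets higher and 0.258% lower. The call was lost with any 1 of citrate buffer replicates 2 and 3 and the 4 iron citrate libraries left out (edgeR adjusted p of 0.13 to 0.219), while the log2 fold change stayed between 2.30 and 2.44.

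**Figure D1:**
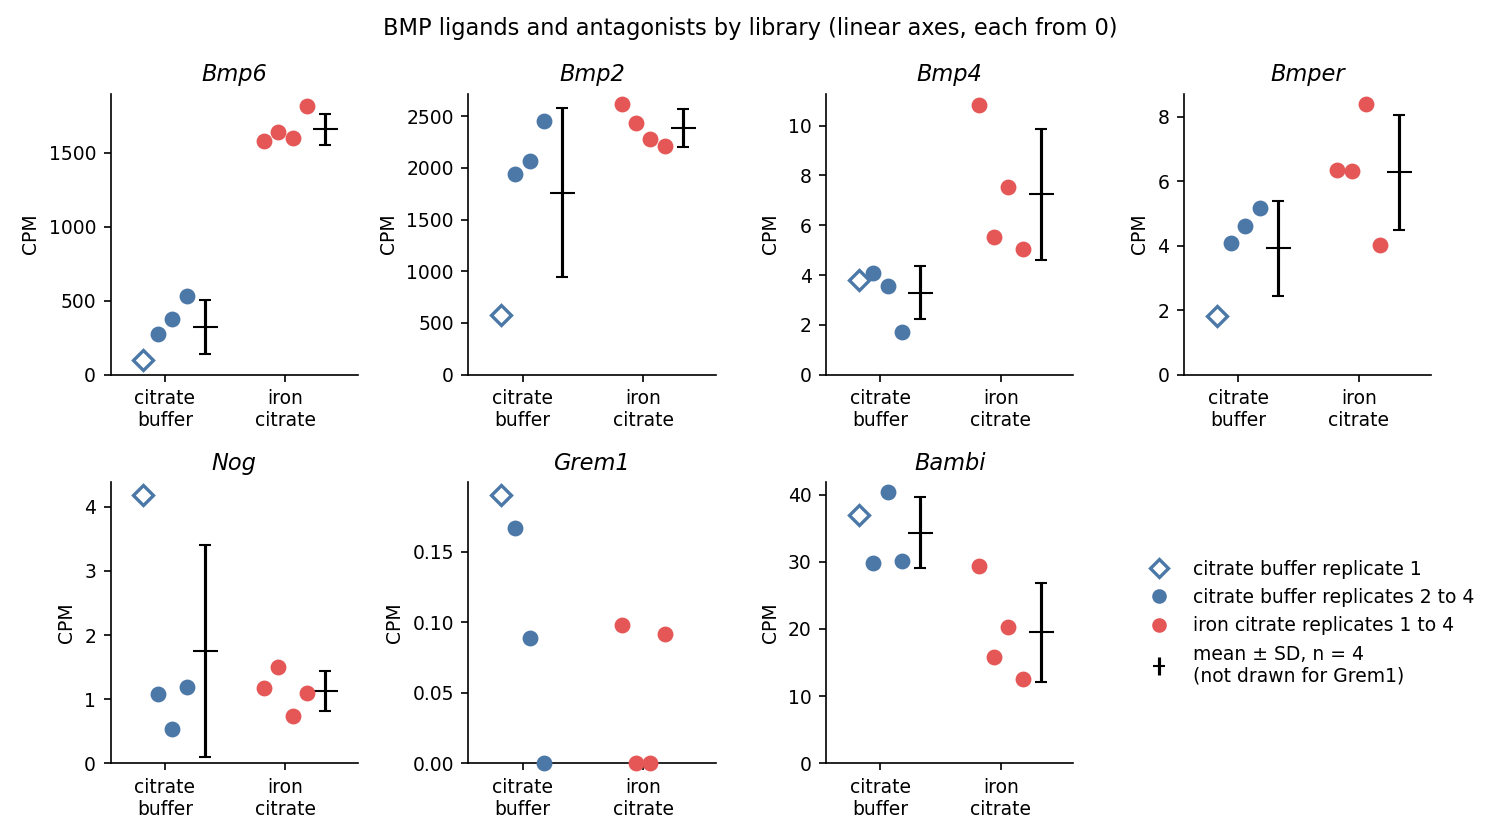
Level of each of the 7 genes in CPM (y axis, linear, from 0) in the 4 citrate buffer and 4 iron citrate libraries, with citrate buffer replicate 1 as an open diamond and the mean ± SD as bars (not drawn for Grem1). The iron citrate points of Bmp6 start at 1580 CPM, above the highest buffer point at 535 CPM, and the diamond is the lowest point for Bmp6, Bmp2 and Bmper and the highest for Nog.

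The series' title names NRF2 and ETS1, so the bases before the start of the ligand genes were searched for their recognition letters. RefSeq's promoter table (GRCm38.p6) held 4 of the 7 genes, *Bmp6*, *Bmp4*, *Bmper* and *Grem1*. The 250 bases before the start are shown for the ligands among them, 5′ to 3′ on the strand of the gene, at chr13:38345466-38345715 (plus strand) for *Bmp6* and chr14:46390670-46390919 (minus strand) for *Bmp4*. Capitals mark matches to the motifs searched.
Bmp6: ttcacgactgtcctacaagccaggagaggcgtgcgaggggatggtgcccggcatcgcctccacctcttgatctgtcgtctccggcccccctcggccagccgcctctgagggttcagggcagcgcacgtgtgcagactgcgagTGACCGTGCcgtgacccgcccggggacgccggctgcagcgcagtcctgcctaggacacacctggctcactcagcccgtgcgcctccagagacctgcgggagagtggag
Bmp4: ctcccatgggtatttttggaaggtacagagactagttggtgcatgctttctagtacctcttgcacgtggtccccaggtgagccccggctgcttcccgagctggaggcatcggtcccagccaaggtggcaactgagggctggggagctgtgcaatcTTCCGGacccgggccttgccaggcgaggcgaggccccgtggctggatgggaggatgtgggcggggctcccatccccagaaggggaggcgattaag

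The letters of an antioxidant response element, TGACNNNGC, where NRF2 binds, matched once before *Bmp6*, on the plus strand at positions -108 to -100 from the start. On either strand 10.2% of 32851 promoters of this length hold such a match. The ETS letters CCGGAA matched once before *Bmp4*, on the opposite strand at -95 to -90, as 3952 of the 32851 promoters do on either strand. For *Bmp6* neither CCGGAA nor CAGGAA (in 25.7% of promoters) matched in this window. The BMP-SMAD letters GGCGCC (9.59% of promoters) and the AP-1 letters TGANTCA (6.75%) matched before neither ligand. No match says only that these letters are not in these 250 bases. Both windows were rich in G and C, 68.8% for *Bmp6* and 63.2% for *Bmp4* against a median of 52.4%.

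*Bmp2*, the ligand that shares with BMP6 the task of holding hepcidin up, stood at 578, 1941, 2067 and 2454 CPM after buffer. After iron it was at 2618, 2437, 2281 and 2208 CPM. The groups overlapped, and without the lowest library, citrate buffer replicate 1, the buffer mean was 2154 ± 268 CPM (SD, n = 3) beside 2386 ± 182 CPM (SD, n = 4) after iron. The log2 fold change, 0.44 ± 0.36 (SE), was not called (edgeR adjusted p = 0.507), nor was the value of 0.15 ± 0.13 without citrate buffer replicate 1 (edgeR adjusted p = 0.644).

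The ratio of *Bmp6* to *Bmp2* counts within a library does not depend on how libraries are scaled. Per 100 *Bmp2* counts there were 16.8, 14.3, 18.3 and 21.8 *Bmp6* counts after buffer, and 60.35, 67.2, 70.2 and 82.3 after iron. Citrate buffer replicate 1, the lowest library for each gene alone, lay inside the range of the other buffer libraries for the ratio. The mean was 17.8 ± 3.12 after buffer and 70.02 ± 9.155 after iron (SD, n = 4 each). This is a 3.95-fold difference, with a log2 difference of 1.98 ± 0.16 (SE, exact two-sided permutation test, p = 0.0286, the smallest that 4 against 4 allows, and 0.0286 when adjusted over 3 ratios). The log2 difference was 1.88 to 2.085 when any 1 library was left out, and 1.96 without citrate buffer replicate 1.

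Set against the sorted cell type, *Bmp6* gave 0.475, 0.914, 1.08 and 1.37 counts per 100 counts on 15 sinusoidal markers after buffer. After iron it gave 4.97, 4.76, 5.16 and 5.555. The lowest iron citrate value was above the highest buffer value, a log2 difference of 2.51 ± 0.33 (SE, exact permutation p = 0.0286, adjusted 0.0286) and 2.21 without citrate buffer replicate 1. For *Bmp2*, a ratio added after the data were seen, the values were 2.82, 6.37, 5.89 and 6.29 after buffer and 8.24, 7.07, 7.35 and 6.75 after iron. Here too the groups did not overlap, though the nearest values, 6.37 and 6.75, lay close together. The log2 difference for *Bmp2* was 0.53 ± 0.29 (SE, exact permutation p = 0.0286, adjusted 0.0286) and 0.25 without citrate buffer replicate 1. All 3 ratios stood at this p, the smallest that 4 against 4 allows, so the adjustment could not change it.

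**Figure D2:**
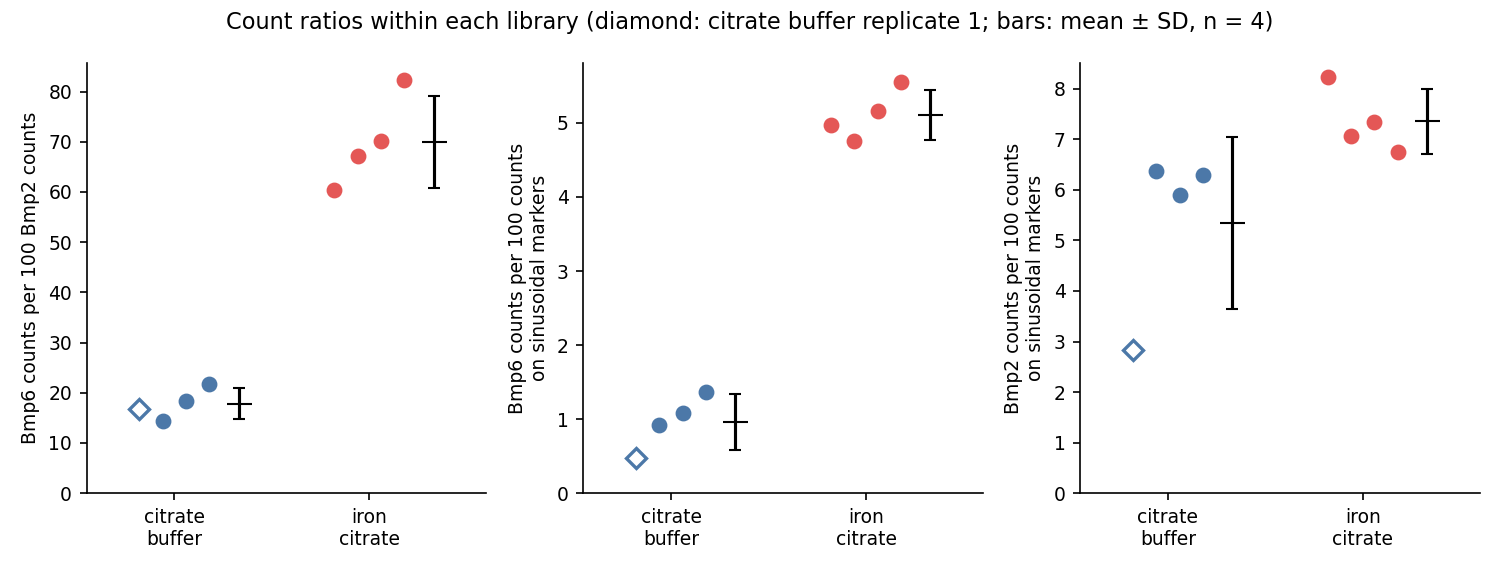
Count ratios within each library (y axes, counts per 100 counts, linear from 0) for Bmp6 over Bmp2, Bmp6 over the sinusoidal markers and Bmp2 over the sinusoidal markers, with means ± SD (n = 4) and citrate buffer replicate 1 as an open diamond. For Bmp6 over Bmp2 the diamond, at 16.8, lies among the other buffer points, which reach 21.8, and the iron citrate points start at 60.35.

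*Bmp4*, a ligand close to BMP2 in sequence and best known from mesenchyme and vessel walls, was read by few counts, 13 to 49 per library after buffer and 48 to 111 after iron. Its levels were 3.804, 4.09, 3.56 and 1.72 CPM after buffer and 10.8, 5.52, 7.55 and 5.045 CPM after iron. All 4 iron citrate values lay above the buffer values, and iron citrate replicate 1 was the highest. Counting error alone was wide: citrate buffer replicate 2, at 4.33 CPM of its library total, had an exact 95% interval of 3.20 to 5.73 CPM, which overlaps that of iron citrate replicate 4 (3.75 to 6.47 CPM). These intervals cover counting error only, since amplicon reads carry no molecular identifiers. The log2 fold change was 1.13 ± 0.39 (SE, edgeR adjusted p = 0.333), so *Bmp4* was not called. An exact permutation test of CPM, made for each of the 7 genes, gave a difference of 3.95 CPM for *Bmp4* (p = 0.0286, unadjusted, the smallest that 4 against 4 allows). For *Bmp6* and *Bmp2* this exact permutation test gave p = 0.0286 and 0.143, unadjusted. Without citrate buffer replicate 1 the log2 fold change of *Bmp4* was 1.19 (SE 0.38, edgeR adjusted p = 0.163).

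*Bmper* encodes a secreted protein, also called crossveinless-2, that binds BMPs at the cell surface and is made by endothelial cells. It stood at 1.81, 4.09, 4.62 and 5.16 CPM after buffer, and at 6.345, 6.33, 8.39 and 4.04 CPM after iron. The groups overlapped, since iron citrate replicate 4 lay below citrate buffer replicates 2, 3 and 4. The log2 fold change was 0.68 ± 0.40 (SE, edgeR adjusted p = 0.367), and the exact permutation test of CPM gave p = 0.114. Without citrate buffer replicate 1, the lowest library as for *Bmp6* and *Bmp2*, it was 0.44 (SE 0.32, edgeR adjusted p = 0.578).

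*Nog* encodes noggin, which closes around a BMP dimer and blocks its receptor sites. It was at the edge of detection, with 44, 13, 6 and 9 counts after buffer and 12, 13, 7 and 12 after iron. Citrate buffer replicate 1, at 4.18 CPM, was above the other 7 libraries, which lay between 0.534 and 1.495 CPM. The log2 fold change was -0.63 ± 0.60 (SE) in all 8 libraries and 0.28 ± 0.46 without that library (edgeR adjusted p = 0.577 and 0.806, with an exact permutation p of 0.771 for CPM in all 8), so even its sign rested on 1 library. *Nog* has 1 coding exon in GENCODE vM21, as the olfactory and similar targets above do. On library totals it stood at 0.162 to 0.406 times the median of those targets in every library, and 12.4% to 17.8% of them lay below it. Their median was also highest in citrate buffer replicate 1, at 17.4 CPM against 1.97 to 6.81 CPM in the other libraries, and its part in the *Nog* value was not tested.

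**Figure D3:**
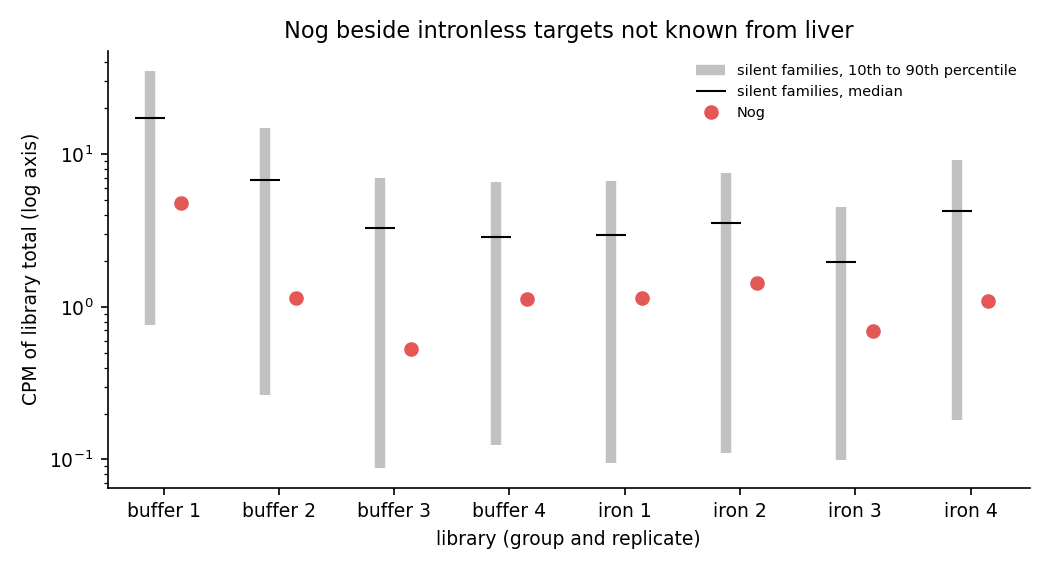
Nog (red points) beside the 1214 targets of intronless receptor and keratin-associated families not typical of liver (black line: median; grey bar: 10th to 90th percentile), in CPM of the library total on a log axis, for each of the 8 libraries. Nog lies below the median in each library, and both are highest in citrate buffer replicate 1, where Nog is at 4.81 CPM and the median at 17.4 CPM.

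*Grem1* encodes gremlin, an antagonist of BMP2 and BMP4 that fibroblasts and stromal cells make. It was hardly detected, with 7 counts over all 8 libraries, and like *Nog* it has 1 coding exon. There were 2, 2, 1 and 0 counts after buffer and 1, 0, 0 and 1 after iron. With 3 counts taken as the limit that a count of 0 allows, the level could be up to 0.376 CPM in citrate buffer replicate 4 and up to 0.333 and 0.296 CPM in iron citrate replicates 2 and 3. No difference was detectable at this depth (exact permutation test of CPM, p = 0.371).

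*Bambi* encodes a membrane protein that resembles a type I receptor without its kinase and so dampens BMP and TGF-beta signals; its gene is itself known as a target of BMP signalling. It stood at 37.0, 29.8, 40.5 and 30.2 CPM after buffer, and at 29.4, 15.8, 20.4 and 12.5 CPM after iron. The iron citrate values lay below the buffer values, as for 2.29% of the targets tested. The gap was narrow, 29.4 against 29.8 CPM, and on unscaled library totals the groups overlapped, at 28.63 CPM in iron citrate replicate 1 and 28.61 CPM in citrate buffer replicate 4. The log2 fold change was -0.82 ± 0.26 (SE, edgeR adjusted p = 0.326), and -0.78 ± 0.24 without citrate buffer replicate 1 (edgeR adjusted p = 0.136). The exact permutation test gave a difference of -14.9 CPM (p = 0.0286, unadjusted) and, on unscaled totals, -16.9 CPM (p = 0.0571). *Bambi* was thus not called with edgeR, and its adjusted p lay above the threshold in each of the 18 alternatives.

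The remaining genes of the pathway were taken from lists by role. Of 58 measured, 36 passed the filter on low counts, and none was called over all targets with edgeR. At an unadjusted p under 0.05, 7 were higher and 3 lower, against 6.57% and 8% of all targets tested. The groups did not overlap for 6 higher and 0 lower genes, against 6.36% and 2.29% of all targets tested. Among the 6 were *Fstl1*, *Smad7*, *Id2* and *Atoh8*. The median log2 fold change of the 36 was 0.21, against -0.01 over all targets, and it was 0.06 without citrate buffer replicate 1. Genes described below without such a value can also depend on that library. Leaving it out moved the log2 fold changes of *Gdf2*, *Acvr1* and *Id3* from 0.212, 0.137 and 0.065 to -0.097, -0.075 and -0.075. Those of *Smad6*, *Tgfbr3* and *Nbl1* went from 0.474, 0.465 and -0.685 to 0.233, 0.225 and -0.35. Among the other ligands 4 of 9 passed the filter. *Bmp5*, a close relative of *Bmp6*, stood at 10.3 ± 4.46 and 19.5 ± 4.68 CPM (SD, n = 4 each; log2 fold change 0.92, SE 0.35, edgeR adjusted p = 0.333), with a log2 fold change of 0.67 without citrate buffer replicate 1. *Bmp7*, which belongs to the same subfamily, had 8.62 ± 1.82 and 7.305 ± 1.27 CPM. *Gdf2* and *Bmp10*, the ligands of the endothelial receptor ALK1, had 7.77 ± 4.56 and 2.66 ± 1.82 CPM after buffer and 9.003 ± 1.94 and 4.06 ± 1.09 CPM after iron.

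Among 20 other antagonists and BMP-binding proteins, 8 passed the filter. *Crim1*, a membrane protein that tethers BMPs, stood at 470 ± 142 and 552 ± 96.1 CPM. *Fstl1*, a secreted follistatin-like glycoprotein, was at 11.3 ± 3.14 and 25.9 ± 9.94 CPM, with groups that did not overlap (log2 fold change 1.19, SE 0.31, edgeR adjusted p = 0.209). With DESeq2, which called 2.06% of targets higher and 0.489% lower, it was called (adjusted p = 0.018). Without citrate buffer replicate 1 its log2 fold change was 1.02 (edgeR adjusted p = 0.0569). *Twsg1*, a cofactor of chordin, had 13.6 ± 4.15 and 19.3 ± 2.95 CPM. *Nbl1*, a secreted antagonist of the DAN family, had 14.8 ± 6.77 and 9.24 ± 0.748 CPM. *Chrd*, which encodes chordin itself, was at 16.5 ± 11.6 and 7.10 ± 3.09 CPM, and citrate buffer replicate 1, at 33.7 CPM, stood at 3.29 times the median of the other buffer libraries, as *Nog* did at 3.86 times. Its log2 fold change was -1.22, and -0.61 without that library.

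Receptors gave no called gene of the 10 that passed. *Eng*, the endothelial co-receptor endoglin, stood at 4536 ± 1764 and 4561 ± 248 CPM and *Bmpr2*, the type II receptor, at 828 ± 180 and 805 ± 102 CPM. For *Eng*, citrate buffer replicate 1 was at 2002 CPM and the other buffer libraries at 4719 to 5959 CPM. The log2 fold change of *Eng* was 0.008 in all 8 libraries and -0.239 without citrate buffer replicate 1 (edgeR adjusted p = 0.99 and 0.454). *Tgfbr3*, the co-receptor betaglycan, had 309 ± 129 and 426 ± 50.1 CPM, and the type I receptor gene *Acvr1* had 70.01 ± 24.0 and 76.9 ± 9.93 CPM. All 8 SMAD and SMURF genes passed the filter and had log2 fold changes above 0, from 0.14 to 0.60, with none called. Of the 14601 targets tested, 7155 had log2 fold changes above 0. *Smad1* and *Smad5*, which carry the BMP signal, stood at 150 ± 51.2 and 58.0 ± 9.05 CPM after buffer and at 171 ± 7.26 and 64.0 ± 2.06 CPM after iron. The inhibitory *Smad7* was at 84.5 ± 29.5 and 128 ± 17.3 CPM (edgeR adjusted p = 0.333) and *Smad6* at 69.8 ± 27.4 and 97.1 ± 12.6 CPM. Without citrate buffer replicate 1 the log2 fold change of *Smad7* was 0.37, against 0.60 with it. Without that library those of *Smad1*, *Smad5* and *Smad9* were -0.04, 0.05 and -0.03.

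Target genes of BMP signalling were read in the same cells, of which 6 of 8 passed the filter. *Id3* and *Id1*, inhibitors of DNA binding that BMP receptors induce, stood at 945 ± 206 and 239 ± 74.6 CPM after buffer and at 988 ± 116 and 308 ± 136 CPM after iron. *Id2* was at 244 ± 68.3 and 459 ± 102 CPM, with groups that did not overlap (log2 fold change 0.91, SE 0.24, edgeR adjusted p = 0.225). It was called without citrate buffer replicate 1 (log2 fold change 1.03, SE 0.21, edgeR adjusted p = 0.0208) and with DESeq2 (adjusted p = 0.037). *Atoh8*, a transcription factor gene that BMP signals raise in liver, was at 10.03 ± 3.30 and 19.3 ± 1.02 CPM (log2 fold change 0.94, SE 0.26, edgeR adjusted p = 0.249) and was called with DESeq2 (adjusted p = 0.0177). Without citrate buffer replicate 1 the value for *Atoh8* was 0.77 (edgeR adjusted p = 0.0569). Both were called with limma-voom too (adjusted p = 0.00971 for *Id2* and 0.0333 for *Atoh8*), where 1.68% of targets were called higher and 0.295% lower. *Hamp*, the hepcidin gene of hepatocytes, was at 47.4 ± 25.5 and 45.4 ± 21.4 CPM.

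**Figure D4:**
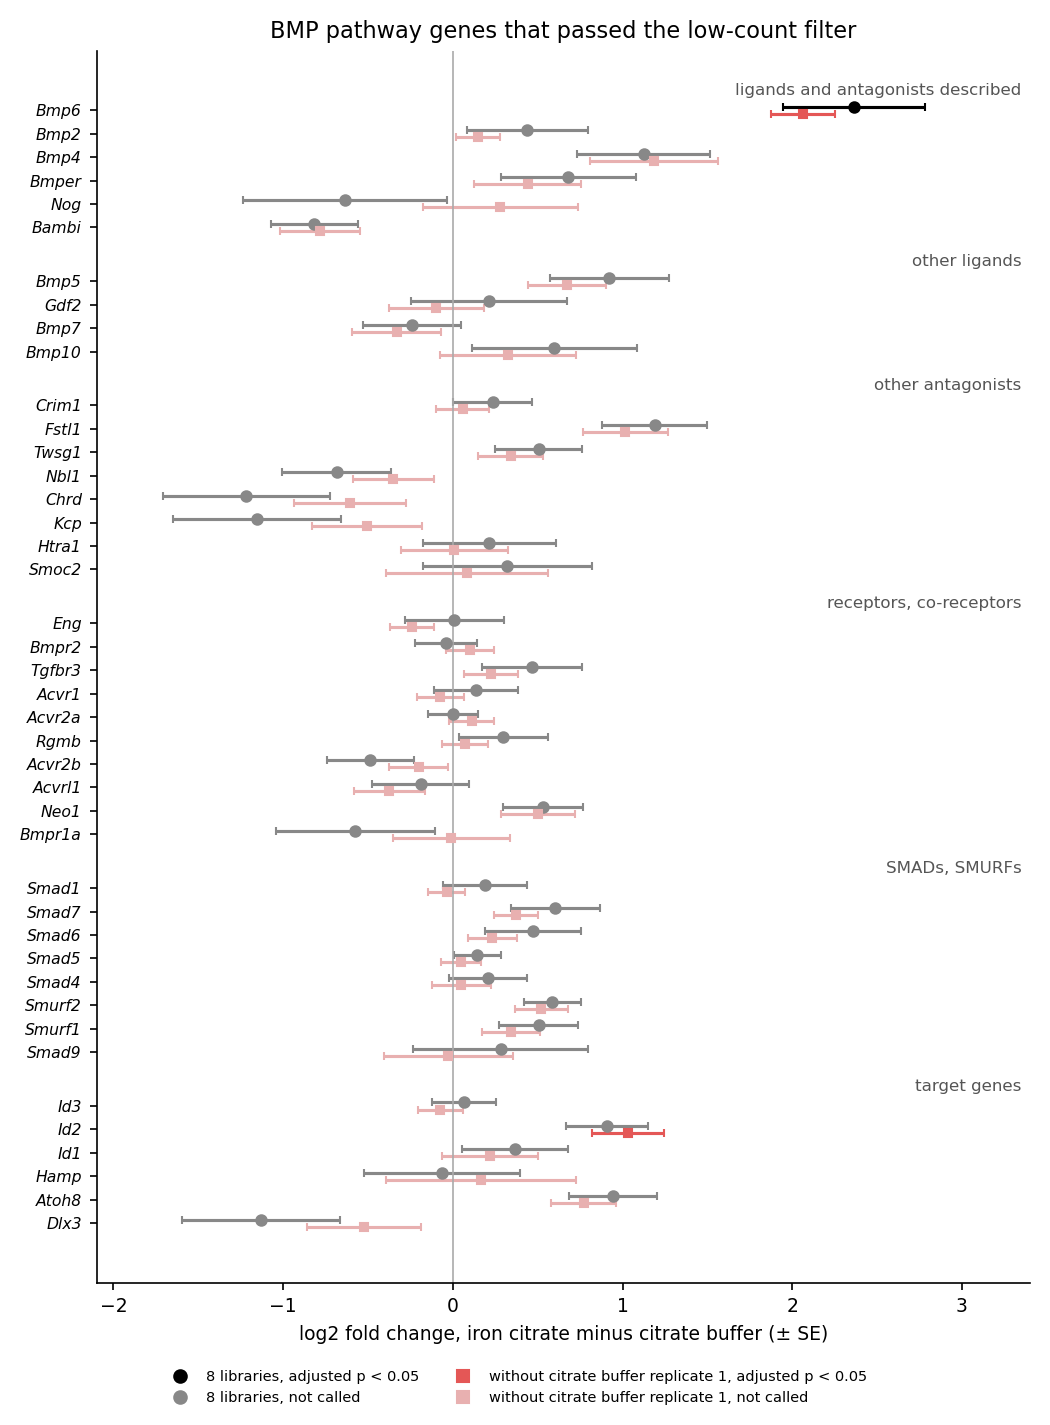
Log2 fold change of iron citrate over citrate buffer (x axis, ± SE) for the members and other BMP pathway genes that passed the low-count filter, by role. Circles use all 8 libraries, squares leave out citrate buffer replicate 1, and dark symbols mark an adjusted p under 0.05: Bmp6 stands alone at 2.36 among the circles, and Id2 joins it among the squares at 1.03.

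Markers of the sorted cells and of others were read beside these genes. All 15 sinusoidal markers were detected in every library, led by *Clec4g* at 9462 ± 1993 and 10007 ± 965 CPM and *Dnase1l3* at 4655 ± 1271 and 4816 ± 724 CPM, and none was called. The 14 stellate cell markers, led by *Dcn* and *Ecm1*, summed to 454 to 1219 CPM after buffer and 909 to 1242 CPM after iron, with the lowest sum in citrate buffer replicate 1. The 11 markers of continuous endothelium, led by *Plvap* and *Emcn*, summed to 942 to 1705 and 1179 to 1561 CPM. Within that list the groups did not overlap for *Vwf*, the von Willebrand factor gene of larger vessels, at 18.5 ± 10.6 and 75.0 ± 48.1 CPM (log2 fold change 2.03, SE 0.55, edgeR adjusted p = 0.239). The same held for *Sox17*, an endothelial transcription factor gene, at 11.4 ± 3.25 and 16.9 ± 1.00 CPM (edgeR adjusted p = 0.333). Of the 9 continuous endothelium markers tested, 5 had log2 fold changes above 0 and 4 below (median 0.187, lowest -0.589). The groups did not overlap for 2 higher and 0 lower of them, against 6.36% and 2.29% of all targets tested. The 9 hepatocyte markers, led by *Alb* and *Hamp*, summed to 497 to 887 and 373 to 795 CPM, and the 11 Kupffer cell and macrophage markers, led by *Lyz2* and *Vsig4*, to 718 to 1003 and 642 to 1126 CPM. This last sum mostly follows *Lyz2*, at 951 of 1003 CPM in citrate buffer replicate 1. *Vsig4* was at 22.9 CPM in that library and at 78.9 to 202 CPM in the others. Of 9 tested Kupffer cell and macrophage markers 8 had log2 fold changes above 0 (median 0.545), while *Lyz2* had -0.393. The sums of these 4 lists and of the sinusoidal markers overlapped between the groups. The 5 neutrophil markers, led by *S100a9* and *Csf3r*, summed to 373 CPM in citrate buffer replicate 1, to 97.9 to 106 CPM in the other buffer libraries and to 158 to 244 CPM after iron. For mesothelium and fibroblasts, which can make gremlin, the 7 markers, led by *Thy1* and *Msln*, summed to 403 to 832 and 421 to 567 CPM. That sum mostly follows *Thy1*, at 761 of 832 CPM in citrate buffer replicate 1, so it says little about the other markers. Of the 7 markers, 4 passed the filter on low counts, 1 with a log2 fold change above 0 and 3 below (median -0.429). The 1 above 0, *Gpm6a*, stood at 8.01 ± 2.07 and 19.3 ± 5.69 CPM (log2 fold change 1.27, SE 0.30, edgeR adjusted p = 0.147). Its iron citrate values all lay above its buffer values, as for 6.36% of all targets tested. Lymphatic endothelium (*Reln* and *Prox1*), cholangiocytes (*Spp1* and *Krt19*), T and NK cells (*Cd3e* and *Nkg7*), B cells (*Cd79b* and *Ms4a1*) and platelets (*Pf4* and *Ppbp*) had overlapping sums too, and no marker of any of the 12 lists was called. In each list at most 2 markers were at 0 in some library, and none was at 0 in all of them. The part of other cells in the values of *Bmp4*, *Bambi*, *Nog* and *Grem1* was not tested.

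Genes whose pattern over the 8 libraries was most like that of *Bmp6* were found by Pearson's r of log2(CPM + 1) among 11669 targets with a mean of at least 5 CPM. This is a description over libraries that share their groups, and much of each r comes from the difference between the groups. The nearest 5 were *Hivep2* (r = 0.996), *Tbcel* (0.993), *Rit1* (0.989), *E2f6* (0.988) and *Atoh8* (0.987), the BMP target above. Without citrate buffer replicate 1 their r with *Bmp6* was 0.972 to 0.9925. Of these, *Rit1*, a small GTPase gene, had 63.1 ± 13.5 and 129 ± 8.215 CPM, a rise of 2.05-fold (edgeR adjusted p = 0.0222), and *Tbcel* rose 2.46-fold (edgeR adjusted p = 0.0335), while *Hivep2*, *E2f6* and *Atoh8* were not called. *Bmp2* lay nearest to *Zdhhc1* (r = 0.995), *Prrc1* (0.994), *Mmp14* (0.993), *Pip5k1c* (0.9925) and *Slc43a2* (0.992). Each of these 5 was lowest in citrate buffer replicate 1, and without it their r with *Bmp2* was 0.804 to 0.917. Between *Bmp6* and *Bmp2* the r was 0.797, and 0.655 without citrate buffer replicate 1.

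**Figure D5:**
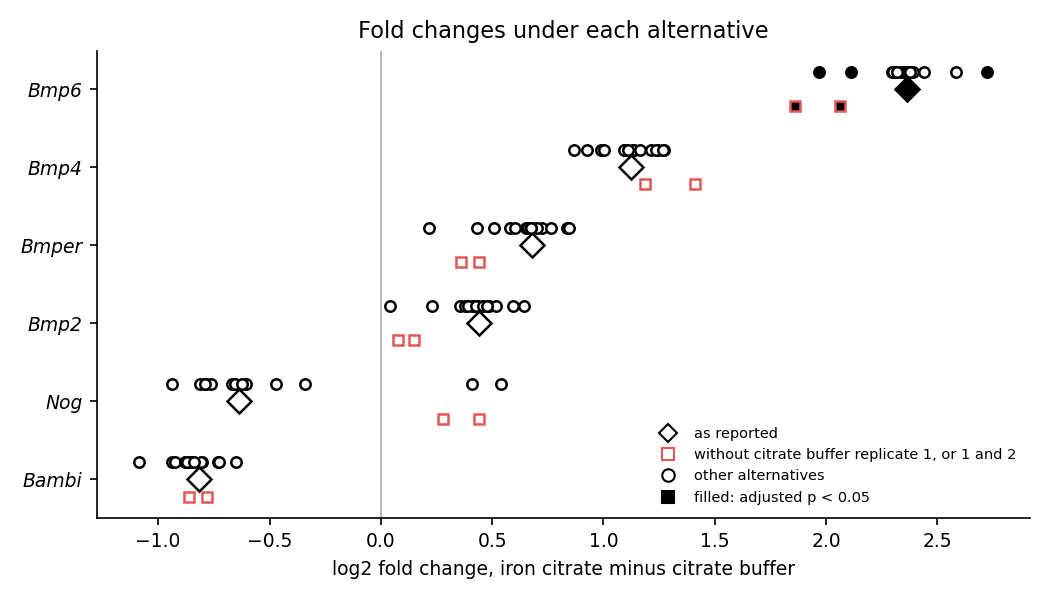
Log2 fold change of iron citrate over citrate buffer (x axis) for 6 of the genes as reported (diamonds), without citrate buffer replicate 1 or replicates 1 and 2 (squares) and under the other alternatives (circles), filled where the adjusted p is under 0.05. Bmp6 stays between 1.86 and 2.72, Nog lies on both sides of 0, and Bambi stays between -1.08 and -0.65 without a filled symbol.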

How the data were processed

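Raw counts of reads on each of 23930 targets were deposited for every library. The submitters' processing notes name HTSeq 0.6.0 and DESeq2 1.18.1. For aligner, genome build and read filters the entry is: not given in the sources used here. Summary lines without a target, 2.15% to 4.60% of reads, were left out. Symbols came from RefSeq and GENCODE vM21 tables (1368 targets unmatched). Exon numbers and promoters come from those tables, not from the files. The 8 libraries were compared, 4 against 4, with edgeR 4.0.16 in R 4.3.3: filterByExpr, TMM factors, a robust quasi-likelihood F-test, and Benjamini-Hochberg adjustment over 14601 targets, called under 0.05. SEs come from the F statistic. The step was tested on simulated data without an outlying library, so that test does not cover the effect of citrate buffer replicate 1. Exact permutation tests used scipy 1.17.1. DESeq2 1.42.0 and limma 3.58.1 (voom) were alternatives, beside other scaling, filters, a replicate block, a covariate (the share of counts on the intronless families) and left-out libraries. Pairs of libraries within a group differed by more than sampling noise (chi-square per degree of freedom at least 8.79). 

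Genes named are the 7 members, the 4 most abundant pathway genes per role, any called one, the 5 nearest in pattern to *Bmp6* and *Bmp2*, and the 2 most abundant markers per cell type. *Chrd*, *Smad9*, *Kcp*, *Dlx3*, *Bmpr1a*, *Vwf*, *Sox17* and *Gpm6a* fall outside this rule and were chosen after their values were seen. Members and lists were chosen with earlier results of these data known.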

Additional observations from a re-analysis of the deposited data

How the results depend on the processing

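Each of the 6 tested members was refitted under 18 alternatives (17 for *Nog*, which a minimum of 5 CPM removed), and *Bmp2*, *Bmp4*, *Bmper* and *Bambi* kept their sign and stayed uncalled in all of them. The *Bmp6* log2 fold change was 2.06 to 2.72 with 1 library left out and 2.58 with the replicate block, where its edgeR adjusted p was 0.0517. *Nog* ranged from -0.94 to 0.28 with 1 library left out, and turned positive without citrate buffer replicate 1 (0.28), without citrate buffer replicates 1 and 2 (0.44), with limma-voom (0.41) and with the intronless-family covariate (0.54). In the exact test of *Bambi* CPM the difference was -14.9 (exact p = 0.0286), and -16.9 on library totals (exact p = 0.0571), while for *Bmp4* the p stayed at 0.0286 (3.95 and 3.52 CPM). The number of targets called, 81, became 365 with DESeq2, 289 with limma-voom, 281 without citrate buffer replicates 1 and 2, 332 with the covariate, 43 with the replicate block and 46 to 258 with 1 library left out. The pathway list's median was 0.057 without citrate buffer replicate 1 and 0.186 with DESeq2, with 1 and 3 genes called. The cause of these shifts was not tested. Same-numbered libraries did not all deviate together (r of -0.01, 0.17, 0.63 and -0.34). These values cannot tell whether such libraries were paired, and the labels tie them by number only. With 7 libraries an exact test cannot go below 0.0571, so the left-out ratios carry no test. Counts limit *Nog*, *Bmp4*, *Bmper* and *Grem1*.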

Other observations

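Genes of the BMP pathway were not evenly placed in citrate buffer replicate 1. Of the 36 other pathway genes that passed the filter, 22 had their lowest of 8 values there and 8 their highest, against 36.6% and 37.4% of all targets tested. The low group held the co-receptor gene *Eng* (0.367 times the median of the other buffer libraries), *Tgfbr3* (0.358), *Smad6* (0.364) and *Smad1* (0.424), as it did *Bmp6* (0.257) and *Bmp2* (0.28). The high group held *Chrd* (3.29), *Kcp* (3.62), *Dlx3* (2.99), *Bmpr1a* (3.19) and *Nbl1* (2.08), as it did *Nog*. These genes were picked after their values were seen. Being low in this library was not particular to the pathway. The 15 sinusoidal markers summed to 20479 CPM there, against 30457 CPM or more in each other library. The 2 most abundant, *Clec4g* (6857 CPM) and *Dnase1l3* (3187 CPM), were each lowest there, though not every marker of that list was.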
